A study of Mus musculus with 6 samples.

Results

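RNA-seq of cultured mouse cortical neurons was used to follow 8 genes over KCl depolarization: the miR-124 host genes Mir124a-1hg and Mir124-2hg, the repressor gene Rest, its cofactor genes Rcor1 and Ctdsp1, and the splicing repressor genes Ptbp1, Ptbp2 and Ptbp3. The genes were taken by symbol from the 43432 genes listed in each expression table, and all 8 were found. Neurons came from wild-type C57BL/6 embryos at E16.5, with males and females pooled, and were kept in culture for 7 days. On day 6 in vitro all cultures were silenced overnight with 1 µM TTX, a sodium channel blocker, and 100 µM DL-AP5, an NMDA receptor blocker, so the 0 h group is silenced neurons and not untreated ones. Depolarization with 55 mM KCl lasted 0 h, 2 h or 6 h, with 2 biological replicates each and 6 libraries in all.

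REST is a DNA-binding repressor that keeps neuronal genes off in non-neuronal cells, through corepressors such as RCOR1 (CoREST) and small phosphatases such as CTDSP1. The microRNA miR-124 is abundant in neurons, its genes are among those repressed by REST, and it lowers Ptbp1 and Ctdsp1 mRNA. PTBP1 in turn blocks the productive splicing of Ptbp2, so neuronal differentiation is marked by a shift from PTBP1 to PTBP2. Poly(A)-selected libraries measure the host transcripts from which miR-124 is cut and not the mature microRNA. The hairpin entries Mir124a-1, Mir124a-2 and Mir124a-3 are listed at 0 counts in all 6 libraries with an effective length of 0, so they carry no measurement.

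Library totals were 25959298 to 28573067 expected counts, and 18767 to 19212 genes had a count. The activity genes Fos and Npas4 were higher at 2 h than at 0 h by log2 fold changes of 7.71 (SE 0.21) and 7.64 (SE 0.22), as a check of the treatment. The 2 h replicates stood apart from each other: over 12290 genes, log2 differences between replicates had an SD of 0.43 in the 2 h group, beside 0.25 in the 0 h and 0.21 in the 6 h group, and the Spearman correlation of that difference with GC content was -0.744 for the 2 h pair, -0.405 for the 0 h pair and -0.293 for the 6 h pair. Of the 8 genes, Mir124-2hg, Ptbp2 and Ptbp3 had 2 h replicates that differed most, and their transcripts hold 45.2%, 40.4% and 42.2% GC. The part of GC content in these gaps was not tested gene by gene; with offsets for GC content the log2 fold change of Mir124-2hg was -1.37 at 2 h against 0 h and 2.496 at 6 h against 2 h. With those offsets Ptbp2 went from 0.07 to 0.30 at 2 h against 0 h and from -0.37 to -0.82 at 6 h against 2 h, and Ptbp3 from -0.81 to -0.69 and from 0.54 to 0.26. Of all genes tested, 9.55% were called at 2 h against 0 h, 19.3% at 6 h against 0 h and 18.1% at 6 h against 2 h, where called means an adjusted p of at most 0.05 in DESeq2 with a log2 fold change beyond 1 in either direction. The 8 genes were selected on their names and on the expected counts and TPM they showed over the KCl time course, so their values are described without a test and nothing is read from how many were called. Such counts were 3 of 8 at 2 h against 0 h (Mir124a-1hg and Mir124-2hg lower, Ptbp1 higher) and 2 of 8, both host genes and both higher, at 6 h against 0 h and again at 6 h against 2 h. By direction, 3.62% of genes tested were called higher and 5.94% lower at 2 h against 0 h, 9.1% and 10.2% at 6 h against 0 h, and 10.1% and 8.02% at 6 h against 2 h. With 2 libraries a group, samples that do not overlap are common: at 2 h against 0 h the libraries did not overlap for 7 of the 8 genes (2 higher, 5 lower), beside 65% of 14668 genes (32.3% higher, 32.6% lower). At 6 h against 0 h this held for all 8 (5 higher, 3 lower), beside 84.8% (42.7% and 42%), and at 6 h against 2 h for 6 (4 higher, 2 lower), beside 77.5% (39.7% and 37.8%).

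RefSeq promoter sequence of GRCm38.p6 was matched for 4 of the 8 genes (Rcor1, Ctdsp1, Ptbp1 and Ptbp2). The 250 bases before the RefSeq start are shown for Ptbp1, the member with the highest 2 h level relative to 0 h, for its relative Ptbp2, and for Rcor1, which like the host genes was lowest at 2 h and highest at 6 h. Short motifs of calcium-responsive and other transcription factors were searched on both strands by their letters: the CRE TGACGTCA, its shorter core TGACG, the AP-1 site TGANTCA, the E-box CACGTG and the EGR site GCGTGGGCG, where a full CRE also holds the core. Capitals mark matches. The Ptbp1 window is chr10:79854182-79854431 on the plus strand, the Rcor1 window chr12:111039117-111039366 on the plus strand and the Ptbp2 window chr3:119783389-119783638 on the minus strand.
Ptbp1: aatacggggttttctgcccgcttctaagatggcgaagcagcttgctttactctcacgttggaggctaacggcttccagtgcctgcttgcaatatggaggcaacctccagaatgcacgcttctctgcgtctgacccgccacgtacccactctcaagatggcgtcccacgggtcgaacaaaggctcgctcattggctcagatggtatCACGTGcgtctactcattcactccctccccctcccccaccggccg
Rcor1: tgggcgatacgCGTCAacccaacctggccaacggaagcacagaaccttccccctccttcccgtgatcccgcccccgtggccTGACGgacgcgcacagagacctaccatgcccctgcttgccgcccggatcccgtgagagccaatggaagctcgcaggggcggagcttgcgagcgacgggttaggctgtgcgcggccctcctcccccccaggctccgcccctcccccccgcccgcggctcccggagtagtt
Ptbp2: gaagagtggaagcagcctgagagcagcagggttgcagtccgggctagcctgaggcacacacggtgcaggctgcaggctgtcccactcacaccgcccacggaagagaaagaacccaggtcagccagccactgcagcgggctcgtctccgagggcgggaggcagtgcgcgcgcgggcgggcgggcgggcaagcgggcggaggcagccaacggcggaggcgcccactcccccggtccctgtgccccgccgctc

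The Ptbp1 window held 1 E-box, with its first base at -45 from the start, and 6.02% of 32851 promoter windows of this length hold one. The Rcor1 window held 2 CRE cores, at -239 on the minus strand and at -169 on the plus strand, and 17.8% of windows hold at least 1. None of the 5 motifs was found in the Ptbp2 or the Ctdsp1 window. GC content was 57.6% in the Ptbp1 window, 70.4% in that of Rcor1 and 72.4% in that of Ptbp2. These matches describe letters only, and the RefSeq start of Ptbp2 at 119783388 lies inside the gene as GENCODE M21 draws it, which runs to 119784466.

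Both miR-124 host genes were lowest at 2 h and highest at 6 h. Mir124a-1hg (ENSMUSG00000097545) is a long intergenic non-coding RNA gene at chr14:64587331-64593961 on the plus strand (GRCm38), whose annotated span holds the hairpins Mir124a-1 and Mir3078. Its libraries held 706 and 705 expected counts at 0 h, then 185 and 166 after 2 h and 1793 and 1550 after 6 h. Every 2 h library was below and every 6 h library above both 0 h libraries. Normalized counts were 610.4 ± 23.1 (SD, n = 2) in silenced neurons, 178 ± 9.28 after 2 h and 1793 ± 178 after 6 h. Against 0 h, the log2 fold change was -1.78 (SE 0.16) at 2 h and 1.55 (SE 0.15) at 6 h, and the 6 h level was 10.1-fold that at 2 h.

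Mir124-2hg (ENSMUSG00000100252), the host of Mir124a-2, lies at chr3:17789921-17808970 on the plus strand and is likewise annotated as a long intergenic non-coding RNA. Its libraries held 938 and 967 expected counts at 0 h, then 437 and 167 after 2 h and 1773 and 1727 after 6 h. The order of the groups was that of Mir124a-1hg with no overlap, but the 2 h replicates differed far more than those at 0 h or 6 h. Normalized counts were 824 ± 12.6 (SD, n = 2) in silenced neurons, 304 ± 186 after 2 h and 1877 ± 28.1 after 6 h. Against 0 h, the log2 fold change was -1.44 (SE 0.51) at 2 h and 1.19 (SE 0.51) at 6 h, and 2.62 (SE 0.51) at 6 h against 2 h. Against 0 h, the 2 h value was -2.25 without 2 h replicate 1 and -0.92 without 2 h replicate 2. The call at 2 h was lost without 2 h replicate 2 and without either 0 h replicate (-1.42 and -1.45), and the call at 6 h against 0 h without either 0 h replicate (1.20 and 1.17), with library totals (0.94) and on TPM with limma. The wide 2 h spread enters the SE of every comparison of this gene, since all libraries share one fit.

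Per length, in TPM, a level corrected for transcript length and scaled to one total per library, Mir124-2hg exceeded Mir124a-1hg in every library. The ratio of their TPM was 1.49 and 1.62 in silenced neurons, 2.75 and 1.49 after 2 h and 1.13 and 1.35 after 6 h. Both 6 h ratios were below those at 0 h, while the 2 h replicates did not agree on a direction.

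**Figure D1:**
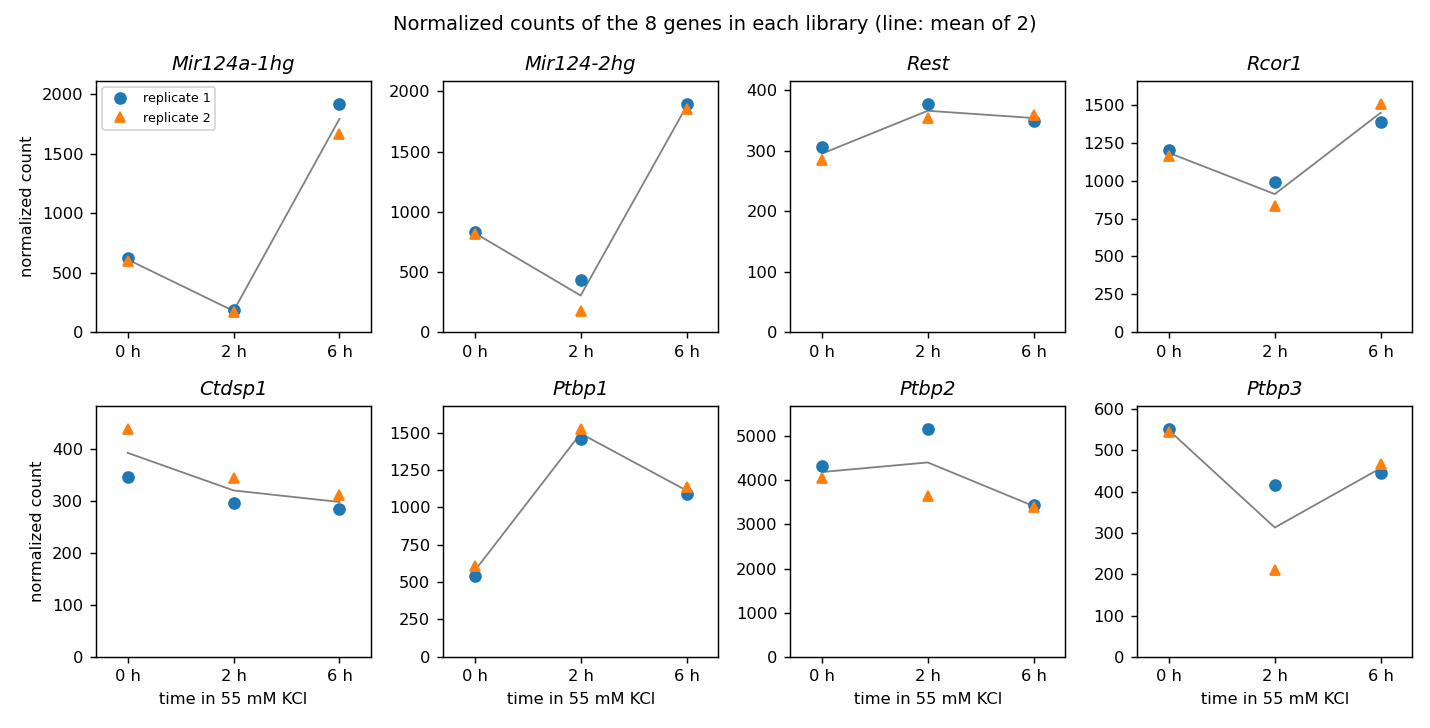
Normalized counts (counts divided by the DESeq2 size factor) of the 8 genes against time in 55 mM KCl, with 1 panel per gene, 1 point per library and a line through the means of 2 libraries. Both host genes dip at 2 h and peak at 6 h, Ptbp1 peaks at 2 h, and the 2 h replicates of Mir124-2hg, Ptbp2 and Ptbp3 lie far apart.

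Rest stayed within a narrow range, at the lowest level per length of the 8 genes at 0 h and 6 h. Rest (ENSMUSG00000029249; chr5:77265491-77286432, plus strand) had 344 and 338 expected counts at 0 h, then 378 and 343 after 2 h and 326 and 334 after 6 h. Normalized counts were 295 ± 14.5 (SD, n = 2), 366 ± 16.2 and 354 ± 7.36, so both depolarized groups lay above 0 h without overlap. Against 0 h it had a log2 fold change of 0.31 (SE 0.17) at 2 h and 0.26 (SE 0.17) at 6 h. Scaling by library totals gave 0.14 and 0.02, a shift shared by all genes, whose median moved to -0.15 and -0.25. In TPM, Rest was at 3.23 and 3.05 in silenced neurons, 3.49 and 3.36 after 2 h and 3.23 and 3.38 after 6 h, where the 0 h and 6 h libraries touch.

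Rcor1, which joins REST to histone demethylase and deacetylase activities, moved in the order of the host genes but over a much smaller range. Rcor1 (ENSMUSG00000037896; chr12:111039351-111115901, plus strand) had 1354 and 1382 expected counts at 0 h, then 994 and 803 after 2 h and 1299 and 1401 after 6 h. Normalized counts were 1183 ± 26.4 (SD, n = 2), 911 ± 115 and 1448 ± 82.6, with no overlap between any pair of groups. The log2 fold change was -0.38 (SE 0.14) at 2 h, 0.29 (SE 0.14) at 6 h against 0 h and 0.67 (SE 0.14) at 6 h against 2 h. The 6 h value against 0 h was 0.05 with library totals, where the median of all genes was -0.25, and 0.08 with limma on log2(TPM + 1).

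Ctdsp1, a phosphatase that acts with REST and itself a known miR-124 target, was highest at 0 h. Ctdsp1 (ENSMUSG00000026176; chr1:74391509-74397285, plus strand) had 389 and 521 expected counts at 0 h, then 296 and 333 after 2 h and 265 and 290 after 6 h. The 0 h replicates differed by more than the 2 h and 6 h groups did from each other. Normalized counts were 392 ± 66.3 (SD, n = 2), 319.9 ± 34.4 and 297.7 ± 20.05, and the log2 fold change was -0.29 (SE 0.21) at 2 h and -0.40 (SE 0.21) at 6 h, so each difference is under 2 SE. Without 0 h replicate 1 these values were -0.46 and -0.56, and without 0 h replicate 2 -0.11 and -0.21.

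Ptbp1 was the member with the largest 2 h level relative to 0 h. Ptbp1 (ENSMUSG00000006498; chr10:79854427-79864771, plus strand) had 611 and 724 expected counts at 0 h, then 1463 and 1478 after 2 h and 1017 and 1058 after 6 h. The 3 groups did not overlap, with 2 h highest and 6 h between 2 h and 0 h. Normalized counts were 576 ± 47.9 (SD, n = 2), 1494 ± 47.4 and 1113 ± 35.2, so the 2 h level was 2.59-fold that at 0 h. The log2 fold change was 1.37 (SE 0.13) at 2 h and 0.95 (SE 0.13) at 6 h against 0 h, and -0.43 (SE 0.13) at 6 h against 2 h. The effective length of Ptbp1, an abundance-weighted mean over its 16 annotated transcripts, was 2617 and 2746 bases in silenced neurons, 2065 and 2085 after 2 h and 2348 and 2181 after 6 h. The mix of transcripts to which reads were assigned therefore held shorter forms after KCl, and in TPM the log2 ratio to 0 h was 1.56 at 2 h and 1.01 at 6 h. Ptbp1 overlaps Plppr3 and E130317F20Rik on the opposite strand, and although the libraries are stranded, whether the counting used strand is not given in the sources used here, so the counts of Ptbp1 are uncertain to that extent. Plppr3 had log2 fold changes of 0.42 at 2 h and 0.14 at 6 h, and E130317F20Rik of -0.72 and -1.69.

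Ptbp2, the neuronal paralog, had the highest level per length of the 8 genes in every library. Ptbp2 (ENSMUSG00000028134; chr3:119718742-119784466, minus strand) had 4879 and 4796 expected counts at 0 h, then 5180 and 3516 after 2 h and 3207 and 3160 after 6 h. Both 6 h libraries were the lowest, and the 2 h replicates lay on either side of the 0 h pair. Normalized counts were 4186 ± 205 (SD, n = 2), 4404 ± 1087 and 3415 ± 23.2. The log2 fold change was 0.07 (SE 0.18) at 2 h and -0.29 (SE 0.18) at 6 h against 0 h. The 2 h value was -0.20 without 2 h replicate 1 and 0.31 without 2 h replicate 2, and the 6 h against 2 h value of -0.37 became -0.09 and -0.60. At 2 h against 0 h it was -0.10 by library totals, where the median of all genes was -0.15, and 0.30 with offsets for GC content, and the 6 h value became -0.53 with those offsets.

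Ptbp3, the paralog of broader expression, was lowest at 2 h. Ptbp3 (ENSMUSG00000028382; chr4:59471868-59549364, minus strand) had 623 and 646 expected counts at 0 h, then 417 and 203 after 2 h and 417 and 435 after 6 h. The 2 h replicates again differed most, and all 4 depolarized libraries were below both 0 h libraries. Normalized counts were 549 ± 6.11 (SD, n = 2), 313 ± 146 and 457 ± 15.3. Its log2 fold change was -0.81 (SE 0.30) at 2 h and -0.26 (SE 0.30) at 6 h. The 2 h value was -1.39 and called without 2 h replicate 1, but -0.40 without 2 h replicate 2. In TPM the 2 h replicates were at 4.35 and 4.36, with effective lengths of 5914 bases for the library of 417 counts and 3028 bases for that of 203 counts.

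**Figure D2:**
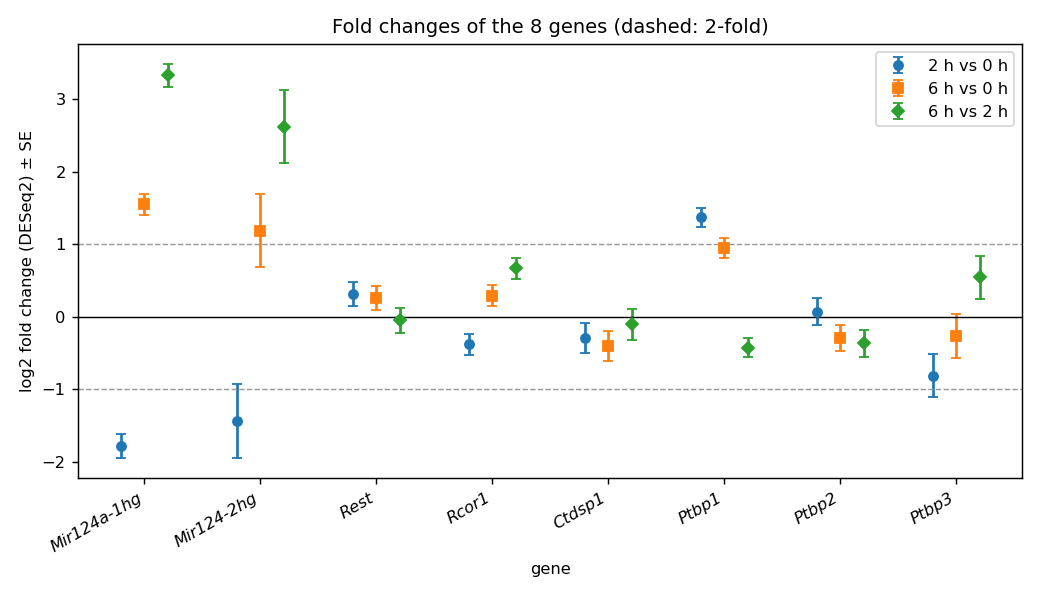
DESeq2 log2 fold change of each of the 8 genes in the 3 comparisons, with bars of 1 SE on each side and dashed lines at a fold change of 2. The 6 h against 2 h values of Mir124a-1hg (3.33) and Mir124-2hg (2.62) are the largest, while all values of Rest, Rcor1, Ctdsp1, Ptbp2 and Ptbp3 lie inside the dashed lines, as do those of Ptbp1 except at 2 h against 0 h.

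The balance of Ptbp2 to Ptbp1 was lower in both depolarized groups than in silenced neurons. The ratio of their TPM was 6.82 and 5.96 in silenced neurons, 2.40 and 1.63 after 2 h and 2.43 and 2.14 after 6 h. Both later groups lay below 0 h without overlap, and they overlapped each other. With 1 mean effective length per gene in all libraries, a choice made after seeing the data, the ratio was 6.13 and 5.08 in silenced neurons, 2.72 and 1.83 after 2 h and 2.42 and 2.29 after 6 h. Of the summed TPM of the PTB genes, Ptbp1 held 11.5% and 13.1% in silenced neurons, 28.6% and 36.8% after 2 h and 26.9% and 29.6% after 6 h. Ptbp2 remained the most abundant of the family, at 59.8% to 78.7%, and Ptbp3 held 2.85% to 9.78%.

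**Figure D3:**
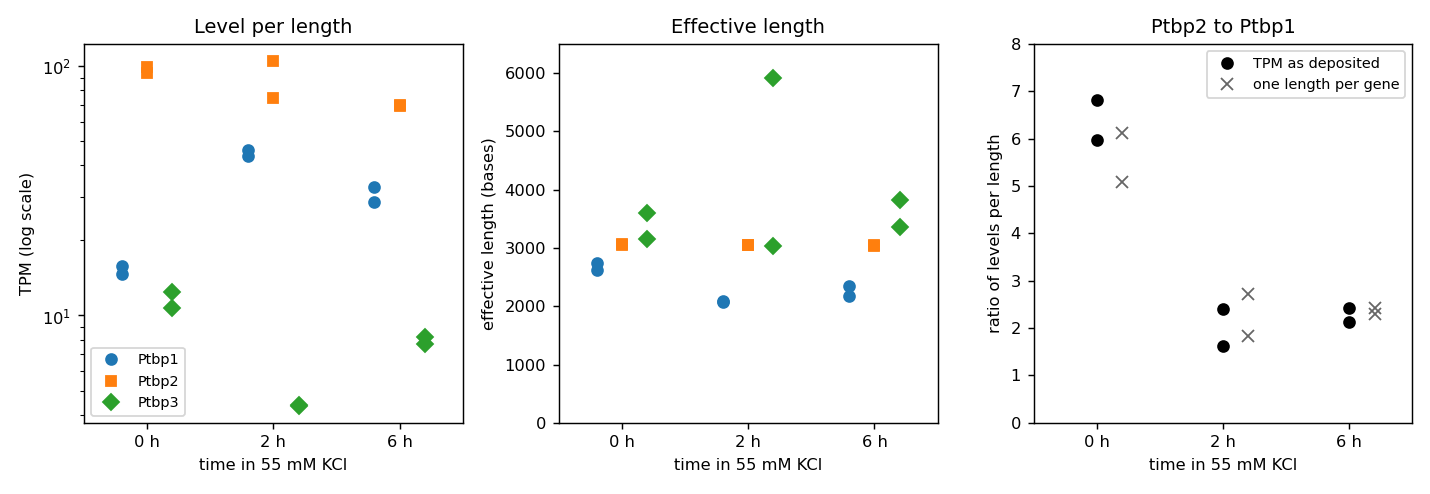
TPM on a log scale (left), effective length in bases (middle) and the ratio of Ptbp2 to Ptbp1 level (right) against time in 55 mM KCl, 1 point per library. The ratio is 5.96 or more at 0 h and 2.43 or less afterwards, and crosses show the same ratio with 1 length per gene.

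Ordered by TPM at 0 h, Ptbp2 (96.9) was followed by Rcor1 (19.3), Mir124-2hg (17.7) and Ptbp1 (15.2), then by Ptbp3 (11.6), Mir124a-1hg (11.4) and Ctdsp1 (10.8), whose libraries overlapped with those of their neighbours, and last by Rest (3.14). At 2 h Ptbp1 (44.9) stood second, and Mir124a-1hg (3.06) was last, below Rest (3.43). At 6 h Mir124-2hg (37.4) was second, and Ptbp1 (30.6) and Mir124a-1hg (30.4) overlapped. Neighbours in the order other than those named did not overlap, except for Mir124-2hg with Ctdsp1 and with Ptbp3 at 2 h.

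Among 11175 other genes that averaged 100 or more normalized counts, the closest pattern was measured as the root-mean-square (RMS) difference of log2 values relative to the 0 h mean over 6 libraries. Closest to Mir124a-1hg were Jph1, a junctophilin gene (RMS 0.151), and Kcns2, a potassium channel subunit gene (0.272). Closest to Mir124-2hg were Zfp292, a zinc finger gene (0.162), and Dsel (0.185). Zfp292 had mean normalized counts of 2392 before KCl, 964 after 2 h and 4943 after 6 h. Closest to Ptbp1 were Tor1aip1 (0.0834), which overlaps Tor1aip2 and shares reads, and Ankrd11 (0.0953). Closest to Rest were Oxct1 (0.0266) and Mpc1 (0.0274), genes of mitochondrial metabolism. On the opposite strand, Ankrd11 overlaps Gm20388, Oxct1 overlaps BC037032 and Mpc1 overlaps 4930506C21Rik, so their counts carry the strand uncertainty given for Ptbp1. Counts of Mpc1 were not whole in 2 libraries.

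Related genes outside the 8 were taken as 7 lists of 104 genes, with calls counted in DESeq2 and to be set beside the shares of all genes called in each direction above. The lists were compiled by function, with earlier results of these data known. Wherever a list had 0 calls in a direction, edgeR's quasi-likelihood test also made 0. Counts at an unadjusted p under 0.05 in DESeq2 stand beside 16.9% of all genes higher and 17.8% lower at 2 h against 0 h, 26.5% and 24.4% at 6 h against 0 h, and 26.8% and 24% at 6 h against 2 h.

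Of 17 REST corepressor genes at 2 h, 1 was called lower, near the 5.94% of all genes, and 0 higher, beside 3.62%, with 4 lower and 1 higher at an unadjusted p under 0.05. Rcor2, a CoREST paralog enriched in neural tissue, went from 242 ± 31.5 (SD, n = 2) normalized counts before KCl to 119 ± 27.3 after 2 h, a log2 fold change of -1.02 (DESeq2 adjusted p = 0.000976), and the call was lost without 0 h replicate 2 or 2 h replicate 1. At 6 h against 0 h, 0 of 17 were called, with 6 higher and 2 lower at an unadjusted p under 0.05. At 6 h against 2 h, Zmym2 (1.13, DESeq2 adjusted p = 4e-08) and Cdyl (1.03, DESeq2 adjusted p = 0.000382) rose. The Zmym2 call was lost with GC offsets and without 2 h replicate 2, and the Cdyl call without 6 h replicate 2 and with other scalings. The list's median log2 fold change was -0.05 at 2 h and 0.18 at 6 h, beside 0.02 and 0.00 for all genes tested.

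Of 8 relatives of Ctdsp1 and genes of REST turnover, 1 was called, Usp7 at 6 h against 0 h. Usp7, a deubiquitinase known to stabilize REST, rose from 3605 ± 87.3 (SD, n = 2) normalized counts before KCl to 8845 ± 25.4 after 6 h, a log2 fold change of 1.29 (DESeq2 adjusted p = 1.24e-40). The median of this list was 0.58 at 6 h against 0 h, and 7 of the 8 were higher at an unadjusted p under 0.05. At 2 h against 0 h, 0 of the 8 were called, with 3 higher and 0 lower at an unadjusted p under 0.05. Ctdsp2, the closest relative of Ctdsp1 and also listed as a miR-124 target, had a log2 fold change of 0.56 at 6 h, against the -0.40 of Ctdsp1.

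Of 24 neuronal genes known as REST targets, 4 rose and 0 fell at 2 h, with 0 lower at an unadjusted p under 0.05 in DESeq2, and 7 rose and 0 fell at 6 h against 0 h, with 5 lower at an unadjusted p under 0.05. The list's median was 0.30 at 2 h and 0.16 at 6 h. Bdnf, Vgf, Scg2 and Syt4 made up the 4 at 2 h, and are known also as activity-induced genes. Scg2, a secretory granule protein gene, rose from 2283 ± 27.1 (SD, n = 2) normalized counts to 9540 ± 502 at 2 h (log2 fold change 2.06, DESeq2 adjusted p = 2.74e-96). Vgf, a neuropeptide precursor gene, rose by 3.24 (DESeq2 adjusted p = 1.72e-25) on the same scale. Nefm and Chrm4 were among those that rose at 6 h, and the Chrm4 call was lost without 0 h replicate 1 or 6 h replicate 2.

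On the PTB side, 0 of 10 PTB-regulated splicing targets were called at 2 h, with 4 higher and 0 lower at an unadjusted p under 0.05. Actn1, an actin cross-linker gene with PTB-controlled exons, rose at 6 h against 0 h by 1.37 (DESeq2 adjusted p = 3.88e-25). Gene counts do not measure the use of its exons. Of 15 PTB partners and neuronal splicing regulators, 0 were called at 2 h, with 5 higher and 2 lower at an unadjusted p under 0.05. Srrm4, an activator of neuronal microexons, rose at 6 h, with 1813 ± 22.0 (SD, n = 2) normalized counts before KCl, 1709 ± 32.1 after 2 h and 5099 ± 8.75 after 6 h. Its log2 fold change was 1.49 at 6 h against 0 h (DESeq2 adjusted p = 4.75e-51). Srrm4 overlaps Srrm4os on the opposite strand, as Stat3 does Stat5a, Ago2 Chrac1, Syt4 Gm26658 and Nefm Nefl, so their counts carry the same strand uncertainty as those of Ptbp1. Syt4 and Nefm also had counts that were not whole in 5 libraries each, a sign of shared reads.

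Of 23 reported miR-124 targets, 1 rose and 1 fell at 2 h, and 3 rose and 1 fell at 6 h against 0 h. At 6 h against 2 h, where both host genes were higher, 5 rose and 2 fell of 22 with an adjusted p. At an unadjusted p under 0.05 in DESeq2, 4 of the 23 were higher and 4 lower at 2 h against 0 h. These counts were 15 and 1 at 6 h against 0 h, beside 26.5% and 24.4% of all genes. At 6 h against 2 h they were 18 and 2, beside 26.8% and 24%. Dlx2 rose and Cdk6 fell at 2 h, of which the Cdk6 call was lost without any 1 of the 6 libraries and with the replicate block, and the Dlx2 call with library totals and on TPM with limma. Ptpn12 and Creb1 rose with Stat3 at 6 h against 0 h, and Cdk6, Creb1, Iqgap1, Lamc1 and Rhog rose while Nr3c2 and Dlx2 fell at 6 h against 2 h. The Creb1 call at 6 h against 0 h (1.00) was not made by edgeR or without 0 h replicate 2 or 6 h replicate 2. The Ptpn12 call was lost with library totals, and the Iqgap1 call with limma on log2(TPM + 1). At 6 h against 2 h, the Dlx2 call was lost with the replicate block, with GC offsets and without 2 h replicate 2 or 6 h replicate 2, and the Cdk6 call without 2 h replicate 2 or 6 h replicate 1. The median log2 fold change of the targets was 0.05 at 2 h, 0.67 at 6 h against 0 h and 0.61 at 6 h against 2 h, beside 0.02, 0.00 and -0.01 for all genes tested. Stat3, a transcription factor gene, rose at 6 h by 1.38 (DESeq2 adjusted p = 5.1e-35), a call not made on TPM with limma. Nr3c2, the mineralocorticoid receptor gene, fell from 412 ± 18.5 (SD, n = 2) normalized counts at 0 h to 145 ± 0.99 at 6 h (log2 fold change -1.51, DESeq2 adjusted p = 1.61e-15). Creb1 rose by 1.47 at 6 h against 2 h (DESeq2 adjusted p = 1.59e-06), with 2 h replicates that differed widely (1581 ± 766). Rhog rose by 1.25 in that comparison (DESeq2 adjusted p = 0.00181), a call lost without 2 h replicate 1 or either 6 h replicate.

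The microRNA processing genes moved in both directions: of 10, 1 fell at 2 h against 0 h, and 2 rose and 3 fell at 6 h against 0 h. Xpo5, which exports precursor microRNAs from the nucleus, fell from 1960 ± 28.03 (SD, n = 2) normalized counts before KCl to 631 ± 39.4 after 6 h, a log2 fold change of -1.63 (DESeq2 adjusted p = 1.71e-37). Among the Argonaute genes, Ago4 fell already at 2 h (-1.22, DESeq2 adjusted p = 1.42e-06) and at 6 h (-1.45, DESeq2 adjusted p = 2.86e-09). Ago2 (1.08, DESeq2 adjusted p = 1.4e-21) and Ago3 (1.32, DESeq2 adjusted p = 0.000171) rose at 6 h, calls not made on TPM with limma, and that of Ago2 not with library totals. Prkra was the other gene that fell at 6 h.

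**Figure D4:**
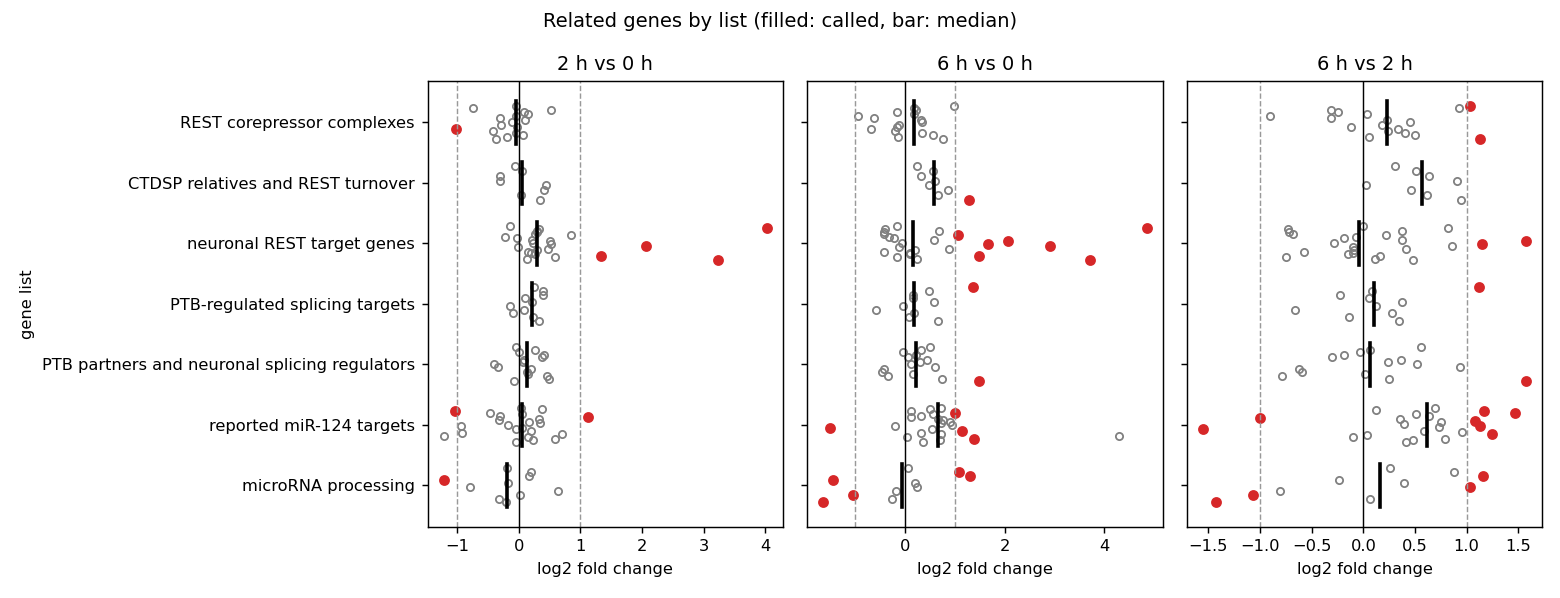
DESeq2 log2 fold change of each gene in the 7 lists, in 1 panel per comparison, with filled points for called genes, open points for others, a bar at each list's median and dashed lines at a fold change of 2. The reported miR-124 targets have medians of 0.67 and 0.61 in the panels for 6 h against 0 h and 6 h against 2 h.

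Rest and Ptbp1 are also expressed by glia and progenitors, which a cortical culture can hold. Summed TPM of 8 neuronal markers was 3990 to 4038 before KCl, 3436 to 3529 after 2 h and 3701 to 3861 after 6 h. The lower sums after KCl follow Tubb3, a neuronal tubulin gene, with mean TPM of 1659, 911 and 730.1, while the median log2 fold change of the 8 markers was 0.36 at 2 h and 0.26 at 6 h against 0 h. The 5 astrocyte markers summed to 430 to 471, 431 to 437 and 360 to 369 in that order. Progenitor markers summed to 64.5 to 72.3, 72.6 to 77.7 and 95.8 to 97.3, with Nes at mean TPM of 34.0, 37.8 and 63.6 and Hes5 at 7.18, 4.33 and 1.82, so members of this list went opposite ways. Markers of dividing cells summed to 147 to 152, 138 to 159 and 105 to 121. Oligodendrocyte lineage markers summed to 114 to 131, 90.8 to 108 and 114 to 126, microglial markers to at most 6.45, and endothelial markers to 0.57 to 0.68, 1.06 to 1.10 and 0.90 to 1.11, with Pecam1 called higher at 2 h and at 6 h against 0 h and Cldn5 listed at 0 at 2 h. Their part in the levels of Rest and Ptbp1 was not tested, and fewer cells of a type and less RNA per cell cannot be told apart in these bulk libraries.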

How the data were processed

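Poly(A)-selected RNA from 6 cultures was sequenced as stranded libraries, and groups and replicate numbers were read from the sample titles. Per the methods of the study, the authors trimmed reads, mapped them to mm10 and estimated expression with RSEM. The submitters' processing notes name RSEM 1.3.0 and Bowtie2 2.2.9. The annotation release and strand setting of the counting are not given in the sources used here. Deposited expected counts are raw estimates. Deposited TPM values are scaled for transcript length and library total. Deposited effective lengths are abundance-weighted means in bases. The deposited FPKM column was not used.

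Genes were matched to GENCODE M21 (GRCm38), which gave 42462 of 43432 identifiers a symbol. All 8 genes had whole counts in every library, so RSEM split no reads between them and other genes, but reads of an overlapping gene could still be assigned whole. Expected counts were rounded, and the 22515 genes above 0 anywhere were fitted in DESeq2 1.42.0 (R 4.3.3), as one model of 6 libraries, with Wald tests, fold changes left unshrunken and adjustment by Benjamini-Hochberg. Library totals of 25959298 to 28573067 set the counting precision, and reads carry no molecular identifiers. Alternatives used edgeR 4.0.16, limma 3.58.1 on log2(TPM + 1) and log2(TPM + 0.1), other scalings, filters, GC offsets and leaving out each library. The main DESeq2 fit and the edgeR fit were tried on simulated counts for 6 h against 0 h only, and the other fits were not. The genes and lists were chosen with earlier results of these data known. Named from each list were up to 4 called genes with the largest absolute log2 fold change. Syt4, Nefm, Chrm4, Prkra, Ctdsp2, Cdk6, Dlx2, Ptpn12, Iqgap1 and Lamc1 were added after their values were seen, and 1 gene that the rule names is not reported here. DESeq2 p-values rest on 1 spread per gene, shared by the 3 groups of 2 replicates and not estimated for each comparison alone. Bisulfite libraries were not used here.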

Additional observations from a re-analysis of the deposited data

Results flagged for a closer look

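For 3 of the 8 genes the depolarized groups lay on opposite sides of the silenced group: every 2 h library was below and every 6 h library above both 0 h libraries. These were Mir124a-1hg, Mir124-2hg and Rcor1, with log2 fold changes of 3.33, 2.62 and 0.67 at 6 h against 2 h. The order holds for normalized counts. Of 14668 genes averaging at least 10 normalized counts, 32.6% had both 2 h libraries below 0 h, and 42.7% had both 6 h libraries above it. The share of all genes with both was not counted, so nothing is read from 3 of 8. For Rcor1 the 6 h value against 0 h was 0.29, and 0.05 with library totals, where the median of all genes was -0.25. Because both effects share the 0 h group, their difference is the 6 h against 2 h comparison itself. There both host genes lay beyond a log2 fold change of 1 and Rcor1 did not. These values are a description, since the genes were chosen with these comparisons in view.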

How the results depend on the processing

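With 2 libraries per group, some calls depended on the fit, through the fold change or the adjusted p. Of the refitted fold changes of the 8 genes, 343 kept their call or lack of one, 9 lost a call and 8 gained one. None of these refits turned the sign of a called value. For Mir124-2hg at 2 h against 0 h, limma on log2(TPM + 0.1) gave -1.51, no longer called, and leaving out each library gave -2.25 to -0.92. At 6 h against 0 h its value was 0.94 with library totals, 1.04 with limma on log2(TPM + 1) and 1.07 on log2(TPM + 0.1), none called, and 1.17 to 1.20 leaving out each library. Ptbp3 was called at 2 h by limma at -1.23 on log2(TPM + 1) and -1.39 on log2(TPM + 0.1), and ranged from -1.39 to -0.40 leaving out each library, with 0.13 to 1.12 at 6 h against 2 h. Ptbp1 at 6 h against 0 h was called at 1.08 with GC offsets, at 1.08 with the replicate block and GC offsets and at 1.00 with limma on log2(TPM + 0.1), and ranged from 0.87 to 1.04 leaving out each library. The 0 h ratio of Ptbp2 to Ptbp1 was 5.61 with 1 length per gene, against 6.39 from TPM.

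Counts of called genes moved most when DESeq2 tested against a fold change of 2. Over all genes, called higher and lower went from 609 and 1000 to 178 and 225 at 2 h, from 1572 and 1761 to 446 and 414 at 6 h against 0 h, and from 1654 and 1316 to 342 and 198 at 6 h against 2 h. Of the 8 genes, that test called Mir124a-1hg in all 3 comparisons and Mir124-2hg at 6 h against 2 h. Over the listed genes, each counted once, it called 3 higher and 0 lower in place of 5 and 3 at 2 h (3 lower by edgeR), 9 and 1 in place of 15 and 4 at 6 h against 0 h, and 2 and 1 in place of 13 and 4 at 6 h against 2 h. With limma on log2(TPM + 1) all genes gave 257 higher at 2 h, 777 higher at 6 h against 0 h and 750 lower at 6 h against 2 h. Library totals gave 1032 higher at 6 h against 0 h and 5 listed genes lower at 2 h, and moved the median of all genes tested to -0.15 at 2 h and -0.25 at 6 h against 0 h. Listed genes called lower at 2 h ranged from 1 to 3 leaving out each library, with 1 without 0 h replicate 2.

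Replicate numbers were shared between groups. The correlation of same-numbered deviations over 12290 genes was 0.281 at 2 h and -0.0023 at 6 h against 0 h, and 0.152 at 6 h against 2 h. The main fit treated the samples as unpaired, and whether same-numbered samples share a preparation is not given in the sources used here. With the replicate block the same members of the 8 genes were called as without it in all 3 comparisons (1 higher and 2 lower at 2 h, 2 higher at 6 h against either group). Of the listed genes, the block called 2 lower in place of 3 at 2 h, without Cdk6, and 3 lower in place of 4 at 6 h against 2 h, without Dlx2.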
